A study of Mus musculus with 24 samples.

Results

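The question was how loss of Ctcf in progesterone receptor-expressing cells alters the uterine response to progesterone, taken as a difference of differences. The change from vehicle to progesterone in knockout uteri was compared with the same change in floxed uteri, gene by gene, over 14059 expressed genes. The comparison used 16 of the 24 libraries of the series, all from the batch that held every group. Genes called for this difference were then sorted into blunted, lost, reversed and gained responses.

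RNA of whole uteri from 21-day-old C57bl/6 female mice was sequenced. Floxed controls were Cre-negative littermates with the genotype Ctcf-f/f, and knockouts (cKO) had the genotype PgreCre+;Ctcf-f/f, a PgrCre allele with floxed Ctcf. Each mouse had received 0.05 ml of sesame oil under the skin, alone (vehicle) or with 0.5 mg of progesterone, and tissue was taken after 6 h. There were 4 libraries in each of the 4 groups. All groups carried the floxed allele, and only knockouts carried Cre, which is expressed from the progesterone receptor gene Pgr. Effects of losing Ctcf and of carrying Cre cannot be told apart in this design. Whether the 4 libraries of a group are 4 animals is not stated in the labels, and p-values measure the spread of these samples only, which may be technical. In whole tissue, fewer cells of a type and less RNA per cell cannot be told apart.

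Progesterone acts through the progesterone receptor, a nuclear receptor that binds DNA at hormone response elements. In the uterus it acts on epithelium and stroma, and the epithelial hedgehog ligand Ihh signals from the epithelium to patched receptors in the stroma. CTCF is a zinc finger protein that, with cohesin, holds the bases of chromatin loops and limits which enhancers reach which promoters.

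Values are batch-corrected RPKM (reads over gene length and library size), in which some low values fall below 0. Depth ran from about 45000000 to 100600000 reads per library, as the step between low values shows. Ctcf, on chromosome 8 from 105636568 to 105682922 (GRCm38), averaged 25.5 ± 1.55 RPKM in floxed vehicle and 26.0 ± 1.05 in floxed progesterone uteri (SD, n = 4 each). It averaged 11.8 ± 1.22 RPKM in knockout vehicle and 9.95 ± 0.982 in knockout progesterone uteri (SD, n = 4 each), and every knockout library lay below every floxed library. The sources used here do not give the deleted part of the gene. Markers of uterine epithelium, stroma and smooth muscle were present in all libraries. Leukocyte markers, 18 genes, summed to between 137 and 249 RPKM in floxed and between 213 and 521 in knockout libraries. The summed RPKM of mast cell markers, 8 genes, differed by treatment and genotype. It was between 65.2 and 104 in floxed vehicle and 121 and 230 in floxed progesterone libraries. In knockouts it was between 32.5 and 60.2 after vehicle and 65 and 113 after progesterone. The sum does not describe every member: the 6 tested ones had median log2 responses of −0.36 in floxed and −0.25 in knockout uteri. Fat markers, 10 genes, summed to between 160 and 1460 RPKM, and their range overlapped between all groups. In 5 libraries markers of oviduct or squamous epithelium stood high: floxed vehicle 3, floxed progesterone 7, knockout vehicle 9 and 12, and knockout progesterone 8. The oviduct list, 12 genes, summed to between 106 and 590 RPKM and the squamous list, 15 genes of which 14 are in the table, to between 7.9 and 132 RPKM over all libraries. Of 130 marker genes tested, 1 was called for the difference in response (0.769%, against 2.99% of all tested genes), the stromal marker Thy1. The part of these markers in the results was not tested beyond the fit without those 5 libraries, whose values follow.

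In floxed uteri 3741 of 14059 genes responded to progesterone, 26.6% of those tested, with 1382 higher (9.83%) and 2359 lower (16.8%). In knockouts 1229 genes responded, 8.74%, with 612 higher (4.35%) and 617 lower (4.39%). Called here means an adjusted p under 0.05 in limma's moderated test on log2(RPKM + 0.5), with Benjamini-Hochberg adjustment over all tested genes. Both responses were called in 782 genes, and 758 of these had the same sign. The knockout response was the smaller in size in 61.7% of these 758 genes, against 61.3% of all tested genes. The share was 81.2% of the 4188 genes called in either genotype, of which 2959 were called in floxed uteri only and 447 in knockouts only, a choice that favours a larger floxed response. Among the 393 genes called in floxed uteri at 2-fold or more, the median ratio of the knockout to the floxed log2 response was 0.46. Taken the other way, the 175 genes called in knockouts at 2-fold or more had a median ratio of the floxed to the knockout response of 0.75. Each ratio was taken over genes chosen by their size in the genotype it is relative to.

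The difference in response itself was called for 421 genes, 2.99% of those tested. The response was more positive in knockouts for 264 (1.88%) and more negative for 157 (1.12%), a share of 62.7% positive that became 51.0% under quantile normalization. The difference reached 2-fold in 150 genes. At an unadjusted p under 0.05 there were 2390 genes, and the median difference over all tested genes was 0.05 on the log2 scale. The count moved with the libraries used. It was 219 without knockout progesterone library 5, 255 without knockout vehicle library 11b, and 254, 260, 252 and 230 without floxed vehicle library 1b, 2, 3 and 4. It was 63 without the 5 libraries with oviduct or squamous markers, which leaves 11. With the vehicle libraries of the other batch, which held vehicle libraries only, in place of those used here, it was 149.

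**Figure D1:**
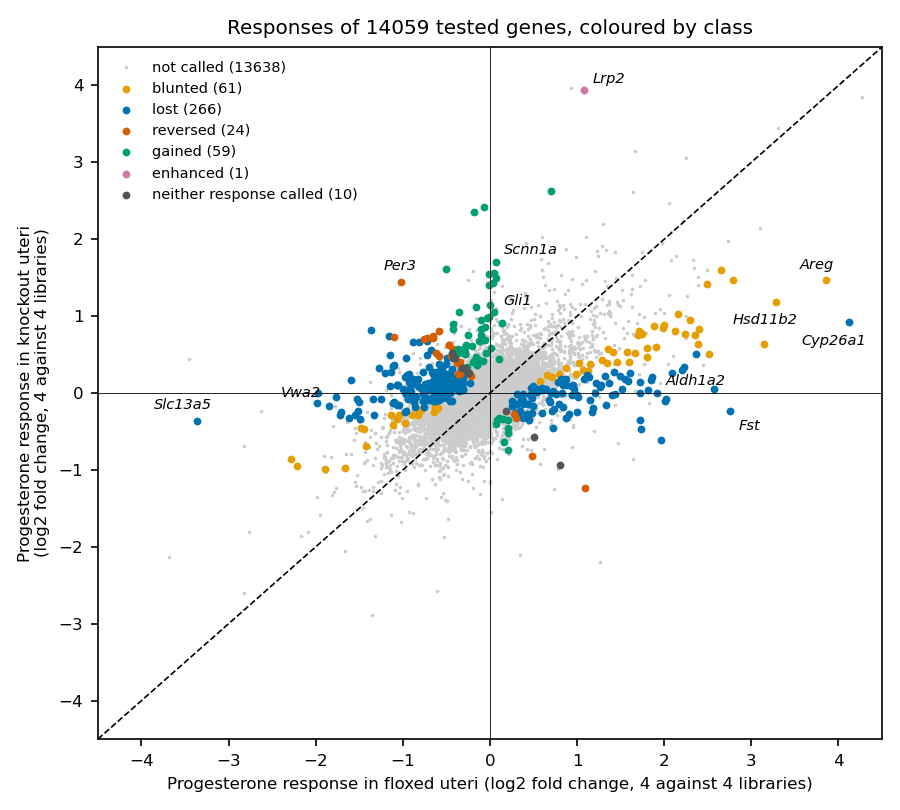
Each point is a tested gene, with its log2 response to progesterone in floxed uteri on the x axis and in knockout uteri on the y axis, 4 against 4 libraries each. Colours mark the classes among the 421 called genes and the dashed line marks equal responses. Lost genes (266) lie along the horizontal axis, gained genes (59) along the vertical axis, and reversed genes (24) to the upper left and lower right.

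Classes were set by fitted responses, so they describe the calls and are not a second test. A response was called lost where the floxed response was called, the knockout response was not, and the knockout log2 response was under 0.25 of the floxed. It was reversed where both were called with opposite signs, and gained where only the knockout response was called. The remaining genes with a called floxed response were blunted, or enhanced where the ratio was above 1. A knockout response that was not called is not shown to be 0. By this rule 266 genes were lost, 61 blunted, 59 gained, 24 reversed and 1 enhanced, and for 10 neither response was called.

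Of the 266 lost genes, 99 rose and 167 fell in floxed uteri. The 99 had a median log2 response of 0.87 in floxed and −0.01 in knockout uteri, and the 167 had −0.67 and 0.10. In 52 of the 99 and 117 of the 167 the knockout response, not called, had the opposite sign to the floxed one. Blunted genes were mostly inductions. The 42 blunted genes that rose had medians of 1.74 in floxed and 0.59 in knockout uteri, and the 19 that fell had −1.07 and −0.34. The knockout response was itself called in 29 of the 42 and 8 of the 19. Gained genes were mostly inductions too, 50 of 59, with a median of −0.13 in floxed and 0.68 in knockout uteri. In 40 of these 50 the floxed response, not called, had the opposite sign. Reversed genes were mostly repressed in floxed uteri, 20 of 24, with medians of −0.47 and 0.54.

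A difference of responses can stem from the vehicle level, the level after progesterone, or both. Between genotypes under vehicle 2411 genes were called, 17.1% of those tested, with 1201 higher in knockouts (8.54%) and 1210 lower (8.61%). After progesterone 3379 were called (24%), with 2018 higher (14.4%) and 1361 lower (9.68%). Among blunted genes 41 of 61 differed between genotypes only after progesterone and 10 only under vehicle. Among lost genes 131 of 266 differed only after progesterone, 71 only under vehicle and 61 in both. Reversed genes divided 10, 8 and 6 in the same order, and gained genes 25, 21 and 13.

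Lost inductions included the activin antagonist Fst and the retinoid enzymes Cyp26a1 and Aldh1a2. Fst, on chromosome 13 from 114452290 to 114458951, encodes follistatin, a secreted protein that binds activins. Under vehicle it was 2.53, 2.91, 4.4 and 5.36 RPKM in floxed uteri and 1.64, 2.13, 1.82 and 1.77 in knockouts. After progesterone it was 28.3, 20.4, 30.3 and 32.6 RPKM in floxed uteri and 1.39, 1.24, 1.77 and 1.62 in knockouts. All floxed libraries after progesterone lay far above all others, while the vehicle and progesterone values of knockouts overlapped. The log2 response was 2.75 in floxed and −0.23 in knockout uteri, a difference of −2.98 ± 0.27 (SE, adjusted p = 4.79e-05). For Fst it was −2.36 (adjusted p = 0.00324) with the other batch's vehicle libraries and −3.13 (adjusted p = 0.0173) without the 5 libraries. Fstl3, a second activin-binding protein, was blunted, with a log2 response of 1.02 in floxed and 0.40 in knockout uteri (difference −0.62 ± 0.14, adjusted p = 0.0252). Fstl3 already stood at 15.4 ± 1.21 RPKM in knockout against 10.5 ± 1.46 in floxed vehicle uteri (SD, n = 4 each), and after progesterone at 20.4 ± 1.16 and 21.8 ± 2.6. The Fstl3 call was lost without knockout progesterone library 5, knockout vehicle library 9 or floxed vehicle library 1b or 3, with differences between −0.70 and −0.54 over the 16 fits that left out 1 library. Fstl3 gave −0.33 (adjusted p = 0.848) with the other batch's vehicle libraries, and it was not called on the RPKM scale (adjusted p = 0.0576). Of 26 tested genes of the activin, BMP and follistatin list, these 2 were called, both negative, against 2.99% of all genes, and the list's median difference was −0.11.

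Cyp26a1, on chromosome 19 from 37697798 to 37701536, encodes the enzyme that degrades retinoic acid. In floxed uteri it was 0.806, 0.885, 1.46 and 1.22 RPKM after vehicle and 26.4, 17.7, 40.5 and 27.8 after progesterone. In knockouts it was 0.491, 1.43, 0.307 and 1.58 RPKM after vehicle and 1.25, 1.76, 1.38 and 5.1 after progesterone. The knockout groups overlapped, and the 5.1 RPKM came from library 8, one of those with squamous markers. The difference was −3.20 ± 0.52 (SE, adjusted p = 0.00421), and −3.40 (adjusted p = 0.0241) without the 5 libraries. Aldh1a2, on chromosome 9 from 71215789 to 71296243, encodes a dehydrogenase that makes retinoic acid. It was 26.1, 25.9, 24.6 and 31.3 RPKM in floxed vehicle and 69.9, 99.7, 112 and 143 in floxed progesterone libraries. Knockout libraries held 29.6, 32.0, 24.1 and 23.0 RPKM after vehicle and 29.9, 27.9, 20.2 and 31.6 after progesterone. Vehicle levels thus overlapped between genotypes, and only floxed uteri reached higher values. The difference was −1.91 ± 0.26 (SE, adjusted p = 0.00144), and −1.95 (adjusted p = 0.0625) without the 5 libraries. These were the only called genes of 17 on the retinoid list, against 2.99% of all genes, and the list's median difference was 0.19. Rdh10, which makes retinal, rose in both genotypes (log2 response 0.59 in floxed, 0.76 in knockout uteri).

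Hsd11b2, on chromosome 8 from 105518755 to 105523988, encodes the enzyme that inactivates glucocorticoids. It rose from 16.3 ± 3.78 to 161 ± 20.4 RPKM in floxed uteri and from 11.5 ± 3.0 to 27.6 ± 9.42 RPKM in knockouts (SD, n = 4 each). The 4 knockout libraries after progesterone, at 35.0, 23.5, 16.2 and 35.6 RPKM, lay above the knockout vehicle libraries and below 136, the lowest floxed one. The response was blunted, with a difference of −2.10 ± 0.33 (SE, adjusted p = 0.00328), and −1.97 (adjusted p = 0.0497) without the 5 libraries. Calca, which encodes calcitonin and calcitonin gene-related peptide, was at most 0.114 RPKM in floxed vehicle libraries and 3.29, 1.79, 1.84 and 1.94 after progesterone. Knockout values were 0.426, 0.748, 0.265 and 0.553 RPKM after vehicle and 0.837, 0.487, 0.433 and 1.23 after progesterone. The knockout groups overlapped, and both lay between the floxed groups (difference −1.90 ± 0.30, adjusted p = 0.00328). Calca met the filter of 1 RPKM in at least 4 libraries only with the floxed progesterone libraries. Those libraries also make its difference, so its p-values in this and other fits carry that choice.

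The EGF family ligand Areg was nearly absent before treatment. Areg, on chromosome 5 from 91139599 to 91148432, encodes amphiregulin. It was between −0.0157 and 0.0496 RPKM in floxed vehicle libraries and 8.1, 5.68, 7.65 and 7.1 after progesterone. In knockouts it was 0.186, 0.218, 0.229 and 0.524 RPKM after vehicle and 1.22, 1.82, 1.6 and 2.08 after progesterone. No groups overlapped: knockouts started higher and ended lower. Areg rose in both genotypes, by log2 3.86 and 1.47, and the difference was −2.39 ± 0.22 (SE, adjusted p = 4.79e-05). Areg gave −2.33 (adjusted p = 0.00626) without the 5 libraries. Its vehicle values lay near or below the 0.5 added before the log, so these log2 sizes depend on that setting. In RPKM the Areg difference was −5.73 (adjusted p = 3.88e-05). Errfi1, an inhibitor of the EGF receptor, rose from 17.6 ± 2.79 to 72.1 ± 12.3 RPKM in floxed uteri and from 20.1 ± 2.24 to 38.0 ± 6.66 RPKM in knockouts (SD, n = 4 each). Its difference was −1.11 ± 0.21 (SE, adjusted p = 0.00961), against −0.71 (adjusted p = 0.717) with the other batch's vehicle libraries and −1.23 (adjusted p = 0.109) without the 5 libraries.

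Of 11 tested genes of the EGF family and receptors, 3 were called negative and 1 positive, against 1.12% and 1.88% of all genes. The third negative gene was Hbegf, an EGF receptor ligand, which was 13.1, 7.95, 8.85 and 6.92 RPKM in floxed progesterone libraries and between 3.12 and 4.97 RPKM in every other library. Its difference of −0.92 ± 0.22 (SE, adjusted p = 0.0358) was called in 6 of the 16 fits that left out 1 library. It was lost without knockout progesterone 4 or 5, knockout vehicle 10, 11b or 12, floxed progesterone 7, or any floxed vehicle library, with differences between −1.03 and −0.74. Hbegf was not called on the RPKM scale (adjusted p = 0.0612) or with the other batch's vehicle libraries (−0.65, adjusted p = 0.303). The positive gene was Erbb2, a receptor that pairs with the EGF receptor. Erbb2 fell in floxed uteri only, from 14.6 ± 0.579 to 10.7 ± 1.02 RPKM, and was 12.1 ± 0.536 and 12.8 ± 0.859 in knockouts (SD, n = 4 each; difference 0.51 ± 0.10, adjusted p = 0.0151, or 0.45 with adjusted p = 0.329 with the other batch's vehicle libraries).

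The stretch of 250 bases before the start of Areg, Errfi1 and Fstl3 is shown as an example of blunted inductions whose window holds the letters of a hormone or cAMP response element. The windows were picked for these letters, which are no trait of the class. A second Errfi1 window and the windows of the blunted inductions Tac2 and Ripor2 hold neither, while TGACGTCA also stands in that of the lost repression Hhip and ACANNNTGT in windows of Wnt5b, Sp5 and Greb1. Sequences are those of RefSeq on GRCm38.p6, from 5′ to 3′ on the gene's strand. Capitals mark TGACGTCA, the cAMP response element, and ACANNNTGT, the core of a hormone response element. TGACGTCA was added to the motifs after the sequences had been seen.
Areg, chr5:91139349-91139598, plus strand: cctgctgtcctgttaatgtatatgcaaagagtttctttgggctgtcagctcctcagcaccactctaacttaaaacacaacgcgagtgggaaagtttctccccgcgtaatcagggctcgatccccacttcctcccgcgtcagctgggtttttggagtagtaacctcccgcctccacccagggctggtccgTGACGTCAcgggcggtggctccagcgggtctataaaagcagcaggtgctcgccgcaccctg
Errfi1, chr4:150854820-150855069, plus strand: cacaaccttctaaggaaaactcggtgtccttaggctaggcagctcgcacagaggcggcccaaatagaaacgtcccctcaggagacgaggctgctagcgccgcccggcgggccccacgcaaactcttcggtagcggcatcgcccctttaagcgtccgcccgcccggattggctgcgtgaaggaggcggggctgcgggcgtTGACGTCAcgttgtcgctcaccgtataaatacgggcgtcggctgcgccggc
Fstl3, chr10:79777024-79777273, plus strand: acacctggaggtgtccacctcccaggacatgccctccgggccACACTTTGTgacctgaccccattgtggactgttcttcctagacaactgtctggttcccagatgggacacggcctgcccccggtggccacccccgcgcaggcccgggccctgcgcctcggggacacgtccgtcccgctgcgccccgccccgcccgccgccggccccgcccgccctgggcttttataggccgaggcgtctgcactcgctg

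RefSeq windows matched 11064 of the 14059 tested genes and 316 of the 421 called ones, and some genes have several. Over windows of 300 bases, which add 50 after the start, TGACGTCA on either strand stood in 2.81% of 14047 windows of tested genes. It stood in 3 of 46 windows of blunted inductions (6.52%) and 4 of 93 of lost inductions (4.3%). ACANNNTGT stood in 4.36% of all windows, 6.52% of those of blunted inductions, 4.3% of lost inductions and 6.59% of lost repressions. TGTTCT, an arm of the hormone response element, stood in 12.6% of all windows, 10.8% of lost inductions and 18.0% of lost repressions. GGNGGCAG, part of the core that CTCF binds, stood in 15.6% of all windows, 16.1% of lost inductions and 19.8% of lost repressions. These shares are descriptions of letters in short windows and say nothing of binding.

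Other blunted and lost inductions came from several functions. Tac2, which encodes the neurokinin B precursor, rose to between 4.57 and 5.99 RPKM in floxed uteri and 0.092 and 0.465 RPKM in knockouts, from at most 0.276 RPKM in any vehicle library (difference −2.51 ± 0.22, adjusted p = 4.79e-05). Ripor2, which encodes an inhibitor of RhoA, rose from 1.73 ± 0.0886 to 12.2 ± 0.404 RPKM in floxed uteri and from 1.27 ± 0.428 to 1.99 ± 0.231 RPKM in knockouts (SD, n = 4 each). The Ripor2 difference was −2.0 ± 0.19 (SE, adjusted p = 4.96e-05). Pfkfb3, an activator of glycolysis, rose to 65.2 ± 11.6 RPKM in floxed uteri and 19.6 ± 1.53 RPKM in knockouts from 12.6 ± 3.85 and 11.4 ± 1.24 (SD, n = 4 each). Its difference was −1.59 ± 0.24 (adjusted p = 0.00257), but −0.51 (adjusted p = 0.901) with the other batch's vehicle libraries. Ckmt1, a mitochondrial creatine kinase, rose only in floxed uteri, from 4.87 ± 0.779 to 21.9 ± 7.55 RPKM, and was 5.17 ± 0.56 and 4.97 ± 1.72 RPKM in knockouts (SD, n = 4 each; difference −2.10 ± 0.33, adjusted p = 0.00328, or −2.01 with adjusted p = 0.113 with the other batch's vehicle libraries). Pi15, a secreted peptidase inhibitor, rose from 9.89 ± 0.905 to 35.4 ± 12.3 RPKM in floxed uteri and was 11.5 ± 2.9 and 9.34 ± 4.04 RPKM in knockouts (SD, n = 4 each). Its difference was −2.07 ± 0.41 (adjusted p = 0.0126), and −1.86 (adjusted p = 0.263) without the 5 libraries. Nr4a3, an immediate early nuclear receptor gene, reached 2.08, 1.65, 2.58 and 1.74 RPKM in floxed progesterone libraries and at most 0.873 in any other (difference −1.46 ± 0.26, adjusted p = 0.00672). Nr4a3 and Tac2 met the filter of 1 RPKM in at least 4 libraries only through the floxed progesterone libraries. Those libraries also make the difference, so the p-values of Nr4a3 and Tac2 carry that choice. Nr4a3 was the only 1 of 25 tested immediate early genes called, a share near the 2.99% of all genes.

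**Figure D2:**
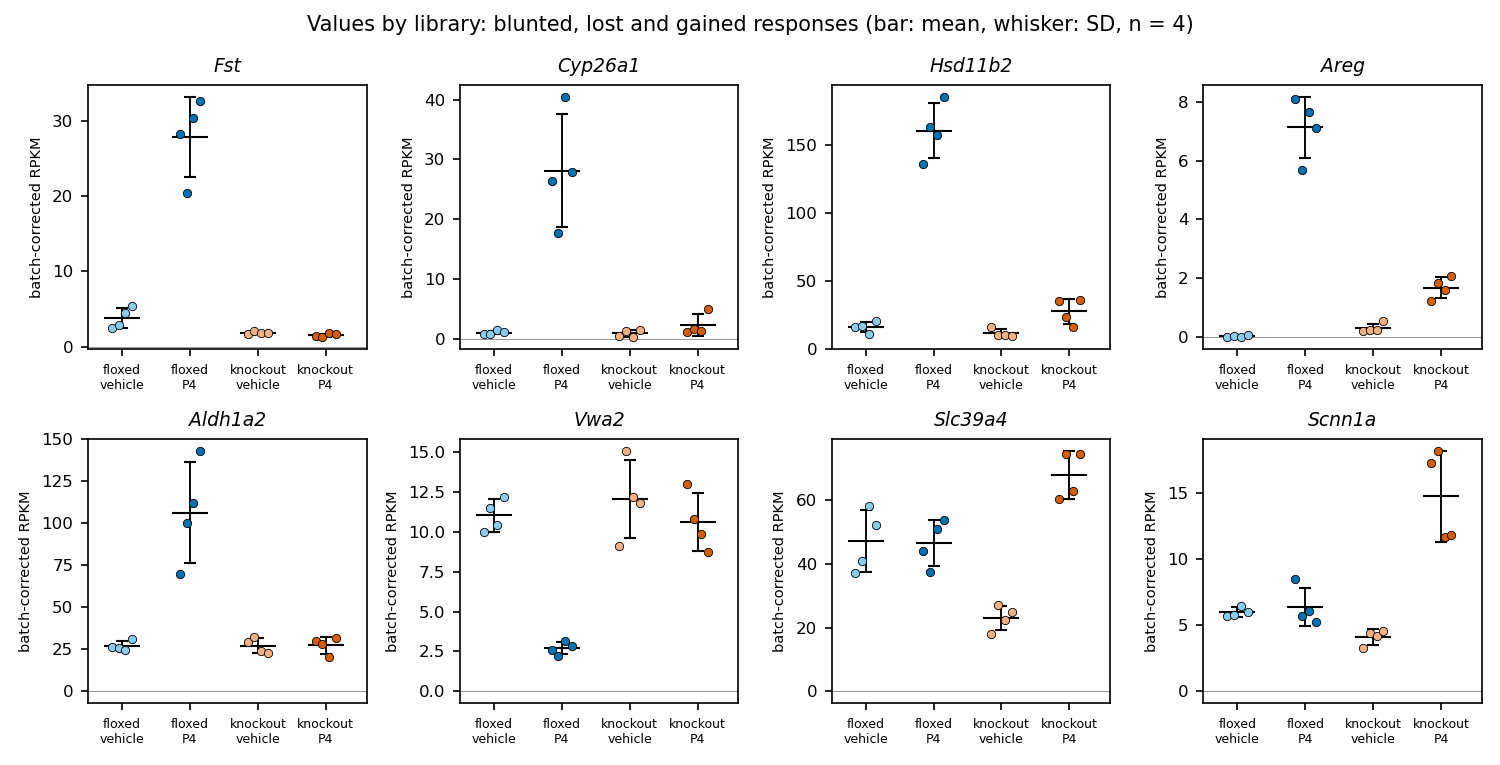
Batch-corrected RPKM of 8 genes in each of the 16 libraries, by group, with the group mean (bar) and SD (whisker, n = 4). Knockout values of Fst, Cyp26a1 and Aldh1a2 after progesterone overlap those after vehicle, with 1 Cyp26a1 library at 5.1 RPKM, Hsd11b2 and Areg rise part of the way, Vwa2 falls only in floxed uteri, and Slc39a4 and Scnn1a rise only in knockouts.

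Several textbook progesterone targets rose in both genotypes. Fkbp5, an immunophilin of steroid receptor complexes, rose from 8.69 ± 0.97 to 38.4 ± 5.21 RPKM in floxed uteri and from 5.09 ± 1.99 to 22.9 ± 6.06 RPKM in knockouts (SD, n = 4 each). Its log2 responses were 2.08 and 2.10, and their difference was 0.02 ± 0.31 (SE, adjusted p = 0.985). In RPKM, where knockouts started lower, the difference was −11.9. Il13ra2, a decoy receptor for interleukin 13, had log2 responses of 3.30 and 3.44 (difference 0.14 ± 0.40, adjusted p = 0.911). For the homeobox gene Hoxa10 they were 0.63 and 0.50 (difference −0.12 ± 0.12, adjusted p = 0.664), and for Gata2, a transcription factor upstream of Pgr, 0.62 and 0.60 (difference −0.03 ± 0.13, adjusted p = 0.948). These differences passed no threshold, which does not show that the responses were equal.

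Of 31 tested progesterone-responsive genes, 19 rose and 2 fell in floxed uteri, against 9.83% and 16.8% of all genes, and 15 rose and 1 fell in knockouts, against 4.35% and 4.39%. The difference was called for 8, against 2.99% of all genes, of which 6 were negative (Areg, Calca, Cyp26a1, Errfi1, Fst and Hsd11b2) and 2 positive (Lrp2 and Ptch1). The list's median difference was −0.03. Of 22 genes that glucocorticoids also raise, 16 rose in floxed and 10 in knockout uteri, and only Errfi1 was called for the difference.

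The progesterone receptor gene Pgr fell after progesterone in both genotypes, from 39.2 ± 4.9 to 11 ± 3.29 RPKM in floxed uteri and from 23.6 ± 3.63 to 13.4 ± 3.6 RPKM in knockouts (SD, n = 4 each). Vehicle groups did not overlap between genotypes, and progesterone groups did. The difference was 1.00 ± 0.30 (SE, adjusted p = 0.087) and was not called on the log2 scale. Pgr was called on the RPKM scale, at 18.0 RPKM (adjusted p = 0.014), and with all 24 libraries, at 1.04 (adjusted p = 0.0197). The Cre of the knockouts sits in this gene. Esr1, the estrogen receptor, fell by log2 values of 0.67 in floxed and 0.60 in knockout uteri (responses −0.67 and −0.60, difference 0.08 ± 0.09, adjusted p = 0.735). Of 21 steroid receptors and coregulators only Paqr5, a membrane progesterone receptor, was called, against 2.99% of all genes. It was not called as changed in floxed uteri (1.91 ± 0.0591 and 1.39 ± 0.249 RPKM) and rose in knockouts from 0.609 ± 0.124 to 1.15 ± 0.298 (SD, n = 4 each; difference 0.92 ± 0.19, adjusted p = 0.0177, or 0.86 with adjusted p = 0.364 with the other batch's vehicle libraries).

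Among hedgehog genes, the target Gli1 gained a response in knockouts from a low vehicle level. Gli1, a transcription factor and readout of hedgehog signalling, was 49.9, 53, 49.9 and 60.1 RPKM in floxed vehicle and 65.2, 51.8, 52.4 and 51.5 in floxed progesterone libraries. The knockout libraries were at 21.4, 23.1, 23.6 and 22.4 RPKM after vehicle and 35.5, 52.1, 58.7 and 46.1 after progesterone. The knockout values after progesterone thus overlapped the floxed ones. Gli1 had a difference of 1.00 ± 0.18 (SE, adjusted p = 0.00739), and was not called on the RPKM scale (adjusted p = 0.0503). Ptch1, the main hedgehog receptor, fell in floxed uteri from 29.3 ± 7.52 to 18.1 ± 1.66 RPKM and rose in knockouts from 9.36 ± 1.43 to 16.5 ± 5.41 RPKM (SD, n = 4 each; difference 1.39 ± 0.29, adjusted p = 0.0168). The ligand Ihh rose in both genotypes, by log2 0.99 and 1.77, and its difference was not called (0.78 ± 0.25, adjusted p = 0.111).

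Hhip, a membrane protein that binds and restrains hedgehog ligands, was between 2.29 and 4.14 RPKM in floxed vehicle and 0.0268 and 0.732 in floxed progesterone libraries. All 8 knockout values of Hhip lay below 0 after the authors' correction and were set to 0, so the knockout response of 0 is set by that step. On the RPKM scale, where this step is not needed, the difference was 2.55 (adjusted p = 0.00367). Both knockout groups averaged −0.208 RPKM, so on that scale too the difference and its positive sign came from the floxed fall alone. Hhip met the filter of 1 RPKM in at least 4 libraries only through the floxed vehicle libraries. Those libraries also make the difference, so its p-values carry that choice. Of 15 tested hedgehog genes 4 were called, all positive, against 1.88% of all genes, and the list's median difference was 0.05, as over all genes. None of the 4 was called with the other batch's vehicle libraries, where Gli1 gave 0.43 (adjusted p = 0.753), Ptch1 0.90 (adjusted p = 0.22) and Hhip 0.28 (adjusted p = 0.886). In that batch the vehicle gap between genotypes was smaller, −16.6 RPKM against −30.6 for Gli1 and −13.8 against −19.9 for Ptch1. Without the 5 libraries Gli1 gave 0.97 (adjusted p = 0.152) and Ptch1 1.44 (adjusted p = 0.143). Under quantile normalization 4 list members were called positive and 2 negative.

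Of 29 tested WNT genes, 15 fell and none rose in floxed uteri, where 16.8% of all genes fell. In knockouts none fell and 1 rose, Sp5, which is near the 4.39% and 4.35% of all genes. For the difference, 6 were called, all positive, against 1.88% of all genes, and the median was 0.43, against 0.05 over all genes. The median was 0.36 under quantile normalization, 0.30 with the other batch's vehicle libraries and 0.40 without the 5 libraries, and in these fits 5, 0 and 0 members were called. Wnt5a, a non-canonical stromal ligand, was 36.7, 40.4, 36.5 and 38.4 RPKM in floxed vehicle and 20.4, 23.7, 23.3 and 21.9 in floxed progesterone libraries. In knockouts it was 32.4, 30.4, 31.9 and 29.5 RPKM after vehicle and 25.7, 28.4, 29.1 and 25.9 after progesterone. No groups overlapped, the knockout groups included, although the knockout response of −0.19 was not called (adjusted p = 0.105). The Wnt5a difference was 0.57 ± 0.09 (SE, adjusted p = 0.00453).

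Wnt6, another ligand, fell from 12.6 ± 1.39 to 5.31 ± 2.69 RPKM in floxed uteri and was 7.96 ± 1.01 and 10.1 ± 0.937 RPKM in knockouts (SD, n = 4 each; difference 1.60 ± 0.30, adjusted p = 0.00956). Wnt5b fell from 4.81 ± 0.165 to 2.34 ± 0.623 RPKM in floxed uteri and was 3.53 ± 0.754 and 3.64 ± 0.2 RPKM in knockouts (SD, n = 4 each; difference 0.99 ± 0.21, adjusted p = 0.0191). Notum, an enzyme that inactivates WNT ligands, fell in floxed uteri (log2 response −1.25) and had −0.08 in knockouts (difference 1.17 ± 0.30, adjusted p = 0.047). The Notum call held in 4 of the 16 fits that left out 1 library, those without knockout progesterone 4, floxed progesterone 1 or 7, or floxed vehicle 2. Notum was not called under quantile normalization (adjusted p = 0.068), on the RPKM scale (adjusted p = 0.173) or with the other batch's vehicle libraries (0.43, adjusted p = 0.782). Lgr5, a receptor for R-spondins found on epithelial progenitors, fell from 10.7 ± 0.704 to 5.9 ± 0.56 RPKM in floxed uteri. Knockout libraries ranged from 9.75 to 20.4 RPKM after vehicle and from 17.6 to 34.3 after progesterone, with overlap (difference 1.47 ± 0.33, adjusted p = 0.0232). Sp5, a transcription factor and WNT target, fell in floxed uteri and rose in knockouts, by log2 −0.42 and 0.57 (difference 0.99 ± 0.21, adjusted p = 0.0192). The calls of Lgr5 and Sp5 were lost without knockout progesterone library 5, and that of Lgr5 without floxed vehicle library 4, with differences of at least 1.27 and 0.83 over the 16 fits, and Lgr5 was not called on the RPKM scale (adjusted p = 0.116). Both changed sign with the other batch's vehicle libraries, to −0.28 (adjusted p = 0.899) and −0.022 (adjusted p = 0.993).

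**Figure D3:**
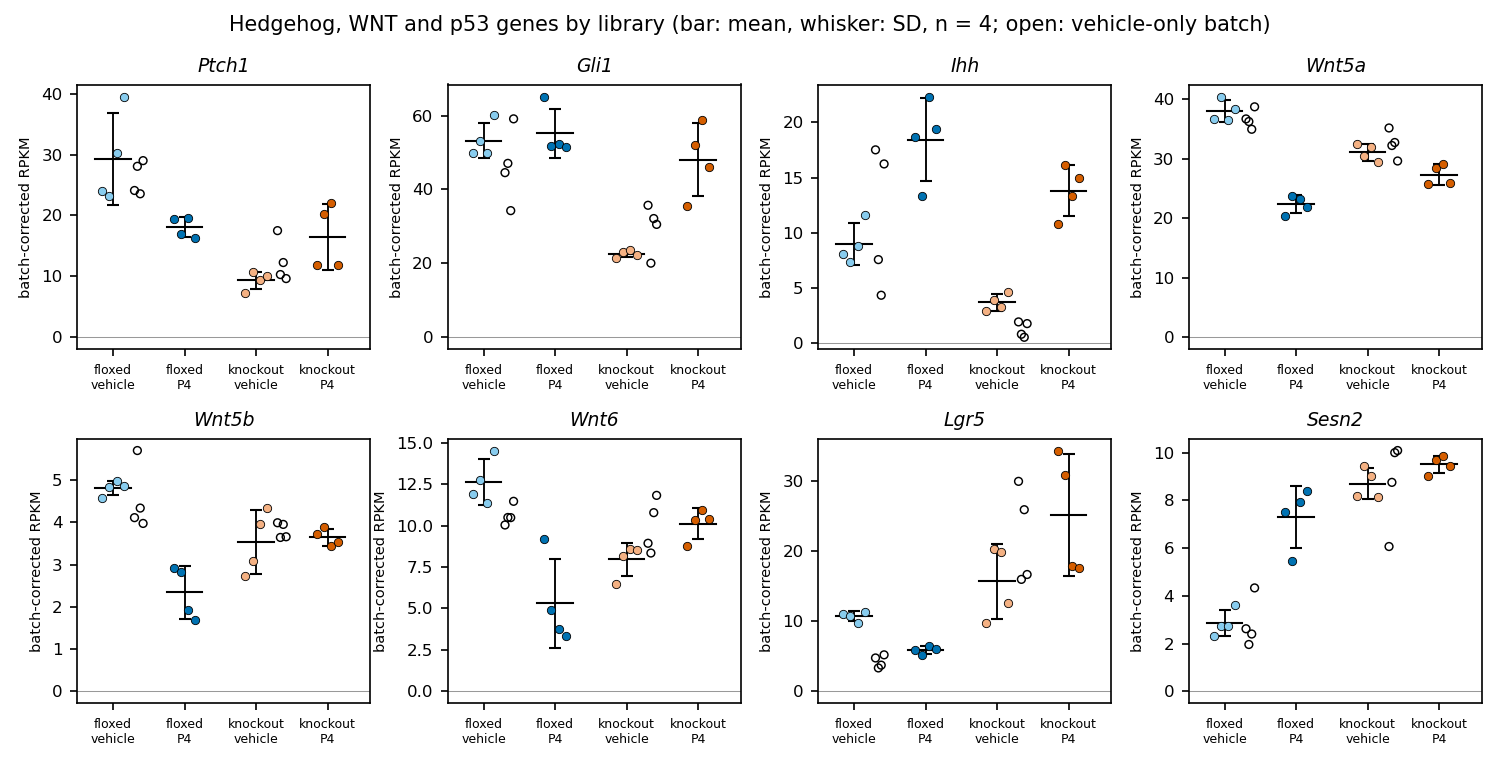
Batch-corrected RPKM of 8 hedgehog, WNT and p53 genes by group (filled points, with mean and SD, n = 4), and in the vehicle libraries of the other batch (open points, 4 per genotype). Gli1 and Ptch1 in knockouts start low and overlap floxed levels after progesterone, Wnt5a, Wnt5b and Wnt6 fall in floxed uteri, and Sesn2 starts high in knockouts.

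Some p53 targets rose in floxed uteri and stood high in knockouts from the start. Sesn2, a stress sensor that restrains mTORC1, was 2.34, 2.74, 2.75 and 3.62 RPKM in floxed vehicle and 7.49, 5.45, 7.93 and 8.38 in floxed progesterone libraries. Knockout libraries stood at 8.17, 9.45, 9.02 and 8.13 RPKM after vehicle and 9.04, 9.71, 9.87 and 9.42 after progesterone. The difference was −1.09 ± 0.18 (SE, adjusted p = 0.00376), and the vehicle gap of 5.83 RPKM was 5.9 RPKM in the other batch. Aen, an apoptosis-linked nuclease, rose from 6.46 ± 0.928 to 14.5 ± 1.44 RPKM in floxed uteri and was 10.6 ± 1.43 and 12.6 ± 1.62 RPKM in knockouts (SD, n = 4 each; difference −0.88 ± 0.17, adjusted p = 0.0133). Zmat3, an RNA-binding p53 target, rose from 4.2 ± 0.632 to 5.87 ± 0.804 RPKM in floxed uteri and was 9.18 ± 0.428 and 7.39 ± 0.455 RPKM in knockouts (SD, n = 4 each; difference −0.74 ± 0.15, adjusted p = 0.0145). These 3 were the called genes of 26, all negative, against 1.12% of all genes, with a median difference of −0.12. No list member was called with the other batch's vehicle libraries, where Sesn2 gave −1.12 (adjusted p = 0.0705), Aen −0.66 (adjusted p = 0.824) and Zmat3 −0.22 (adjusted p = 0.857). The vehicle gap was 4.18 RPKM here and 1.09 there for Aen, and 4.97 and 2.53 for Zmat3.

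Clock genes gave calls in both directions. Of 21 tested, 3 were called positive (Per3 and Tef among them) and 3 negative (Arntl, Nfil3 and Npas2), against 1.88% and 1.12% of all genes, with a median difference of 0.18. Tef and Nfil3 were each called in 6 of the 16 fits that left out 1 library and not on the RPKM scale (adjusted p = 0.053 and 0.154). Both calls were lost without knockout progesterone 5, knockout vehicle 9 or 10, floxed progesterone 7 or 9, or floxed vehicle 1b or 3. That of Tef was lost also without knockout progesterone 4, floxed progesterone 2 or floxed vehicle 4, and that of Nfil3 also without knockout vehicle 11b, floxed progesterone 1 or floxed vehicle 2. Arntl, which encodes the activator BMAL1, was 3.02, 3.11, 2.61 and 2.98 RPKM in floxed vehicle and 11.4, 14.3, 10 and 10.8 in knockout vehicle libraries. After progesterone it was 4.66, 3.36, 5.16 and 4.22 RPKM in floxed and 5.14, 6.81, 8.21 and 5.55 in knockout uteri, so the genotypes came nearer. Per3, a repressor of the clock, showed the opposite order, with 24.9 ± 4.28 RPKM in floxed and 7.65 ± 3.93 RPKM in knockout vehicle uteri, and 12 ± 1.47 and 20.2 ± 5.75 RPKM after progesterone (SD, n = 4 each). The differences were −1.31 ± 0.21 (SE, adjusted p = 0.00332) for Arntl and 2.46 ± 0.41 (adjusted p = 0.00447) for Per3. Npas2, a partner of BMAL1, rose from 2.21 ± 0.156 to 9.21 ± 1.88 RPKM in floxed uteri and was 4.46 ± 0.884 and 4.58 ± 0.766 RPKM in knockouts (SD, n = 4 each; difference −1.78 ± 0.22, adjusted p = 0.000423).

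In the vehicle-only batch the genotype gap under vehicle had the opposite sign for the 5 named clock genes that were called. It was 8.71 RPKM here and −2.21 RPKM there for Arntl, −17.2 and 4.76 for Per3, 2.25 and −2.74 for Npas2, 4.13 and −2.54 for Nfil3, and −27.7 and 6.53 for the output gene Tef. Among clock genes not called, the gap kept its sign for Nr1d1 (−11.2 and −15.7), Cry1 (−1.77 and −1.18), Per1 (−2.85 and −0.25) and Per2 (−6.95 and −0.083). For Dbp (−39.0 and 7.65) and Clock (2.13 and −1.34) it changed sign. With those vehicle libraries none of the 6 called genes of the list was called. Arntl then gave 0.94 (adjusted p = 0.588), Npas2 0.20 (adjusted p = 0.918), Per3 0.30 (adjusted p = 0.934), Nfil3 0.15 (adjusted p = 0.955) and Tef −0.34 (adjusted p = 0.883). The labels give no hour of collection, and its part in these values was not tested.

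**Figure D4:**
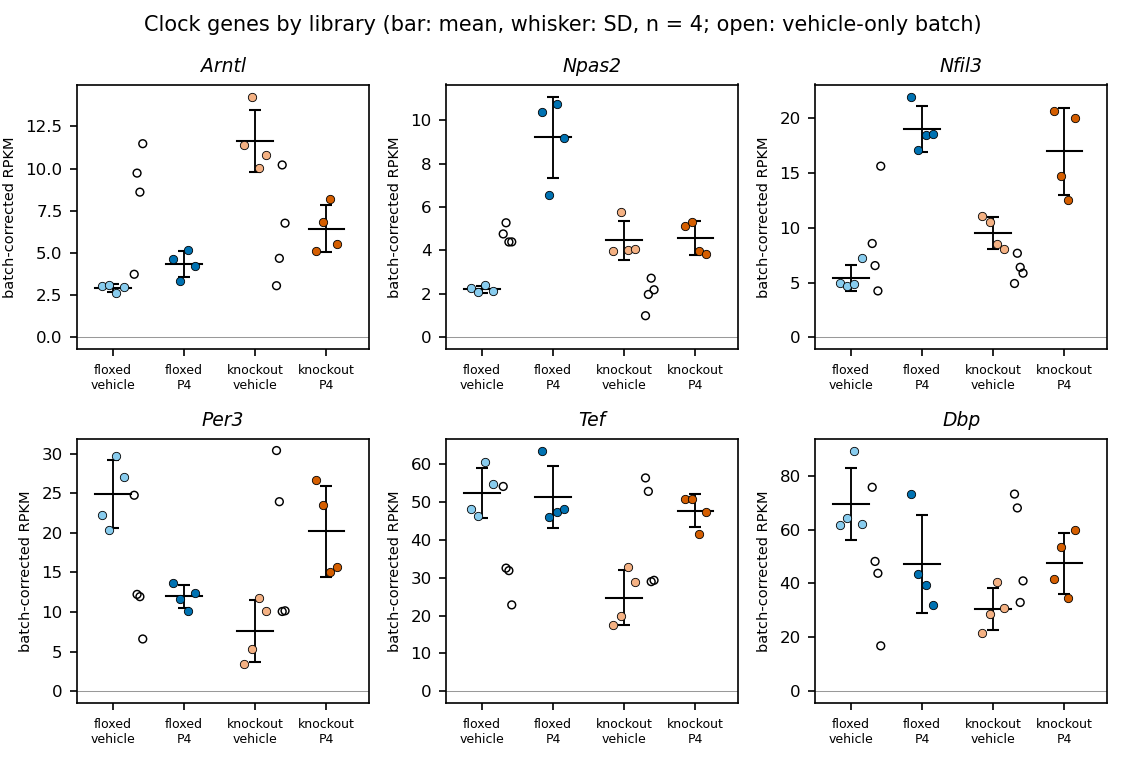
Batch-corrected RPKM of 6 clock genes (5 called and the output gene Dbp, not called, adjusted p = 0.0621) by group (filled points, with mean and SD, n = 4), and in the vehicle libraries of the other batch (open points, 4 per genotype). Filled and open vehicle points order the genotypes differently: Arntl averages 2.93 and 11.6 RPKM in the filled floxed and knockout vehicle points and 8.39 and 6.18 in the open ones.

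Lost repressions included a matrix protein, transporters and a ligand. Vwa2, on chromosome 19 from 56874249 to 56912078, encodes an extracellular matrix protein. It was 9.99, 11.5, 10.4 and 12.2 RPKM in floxed vehicle and 2.6, 2.24, 3.13 and 2.85 in floxed progesterone libraries. Among knockouts it was 9.09, 15.1, 12.2 and 11.8 RPKM after vehicle and 13, 10.8, 9.86 and 8.74 after progesterone, with overlap. The difference was 1.68 ± 0.20 (SE, adjusted p = 0.000423). Slc13a5, the citrate transporter, fell from 11.8 ± 1.11 to 0.822 ± 0.928 RPKM in floxed uteri, while knockouts lay between −0.444 and 1.26 RPKM in both groups. Its difference was 3.0 ± 0.61 (adjusted p = 0.0151), and 7 of its values lay below 0. The difference was 1.17 (adjusted p = 0.584) with the other batch's vehicle libraries. Knockouts averaged 0.151 RPKM under vehicle, so a fall could not be seen there, and the call does not show that a repression was lost. Slc13a5 also met the filter of 1 RPKM in at least 4 libraries only with the floxed vehicle libraries, so its p-values carry that choice. Ndp, which encodes the secreted ligand norrin, fell from 25.7 ± 2.26 to 11.4 ± 2.19 RPKM in floxed uteri and was 5.16 ± 0.808 and 7.79 ± 2.68 RPKM in knockouts (SD, n = 4 each; difference 1.65 ± 0.30, adjusted p = 0.00824). Ndp gave 0.21 (adjusted p = 0.92) with the other batch's vehicle libraries.

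Gained inductions included the ion transport genes Slc39a4, Scnn1a and Slc5a5. Slc39a4, on chromosome 15 from 76612383 to 76617384, encodes a zinc importer. It was 37.1, 41.0, 58.2 and 52.4 RPKM in floxed vehicle and 44.1, 37.5, 50.9 and 54.0 in floxed progesterone libraries. Knockout values were 18.1, 27.2, 22.3 and 24.8 RPKM after vehicle and 60.3, 74.6, 63.0 and 74.7 after progesterone. Knockouts thus moved from below to above the floxed range (difference 1.56 ± 0.22, adjusted p = 0.00168, or 1.35 with adjusted p = 0.0555 without the 5 libraries), and the vehicle gap of −24.1 RPKM was −29.5 RPKM in the other batch. Scnn1a, the alpha subunit of the epithelial sodium channel, was 6.0 ± 0.347 and 6.4 ± 1.44 RPKM in floxed uteri and rose from 4.12 ± 0.581 to 14.8 ± 3.48 RPKM in knockouts (SD, n = 4 each; difference 1.64 ± 0.22, adjusted p = 0.00138). With the other batch's vehicle libraries Scnn1a gave 1.74 (adjusted p = 0.097). Slc5a5, the iodide transporter, was 0.463 ± 0.0383 and 1.22 ± 0.964 RPKM in floxed uteri and rose from 0.706 ± 0.105 to 7.48 ± 3.43 RPKM in knockouts (SD, n = 4 each; difference 1.93 ± 0.42, adjusted p = 0.0224). Its call was lost without knockout progesterone library 5 or floxed vehicle library 4, with differences between 1.69 and 2.27 over the 16 fits. Slc5a5 was not called on the RPKM scale (adjusted p = 0.0584) and gave 1.06 (adjusted p = 0.514) with the other batch's vehicle libraries. It met the filter of 1 RPKM in at least 4 libraries only with the knockout progesterone libraries. Those libraries also make its difference, so its p-values carry that choice. Of 21 tested solute carriers and ion transport genes, 2 were called, Scnn1a and Slc13a5, both positive, against 1.88% of all genes, and the median difference was −0.24. Slc13a5 lay near 0 in knockout vehicle libraries, so its positive sign came from the floxed fall.

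Gained repressions were fewer, 9 of 59 gained genes, and none reached 2-fold. Adamts4, a protease that cleaves aggrecan, was 2.33 ± 0.315 and 2.78 ± 0.556 RPKM in floxed uteri and fell from 6.8 ± 1.29 to 3.82 ± 0.339 RPKM in knockouts (SD, n = 4 each; difference −0.95 ± 0.20, adjusted p = 0.0184). With the other batch's vehicle libraries Adamts4 changed sign, to 0.092. Antxr1, an anthrax toxin receptor that binds matrix, was 31.1 ± 1.15 and 35.9 ± 0.149 RPKM in floxed uteri and fell from 37.6 ± 4.16 to 29.3 ± 1.84 RPKM in knockouts (SD, n = 4 each; difference −0.55 ± 0.10, adjusted p = 0.0108). Antxr1 gave −0.28 (adjusted p = 0.606) with the other batch's vehicle libraries. No knockout vehicle library of Antxr1 or Adamts4 overlapped the knockout progesterone libraries.

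Lrp2, which encodes the endocytic receptor megalin, was the only gene sorted as enhanced, and its direction depended on the scale. It was 12.7, 14.8, 15.8 and 14.8 RPKM in floxed vehicle and 28.1, 22.3, 36.9 and 40.3 in floxed progesterone libraries. In knockouts it was between −0.332 and 1.11 RPKM after vehicle and 16, 14.6, 11.3 and 8.19 after progesterone. The log2 difference was 2.86 ± 0.46 (adjusted p = 0.00381), whereas in RPKM it was −5.23 (adjusted p = 0.571). Lrp2 gave 0.38 (adjusted p = 0.901) with the other batch's vehicle libraries.

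Pacsin3 and Nipsnap1 were the 2 reversed genes also called in every fit that left out 1 library, on the RPKM scale and with the other batch's vehicle libraries, and were chosen after these results were seen. Pacsin3, an adaptor of endocytosis, was 26.0, 28.2, 28.5 and 31.3 RPKM in floxed vehicle and 20.4, 17.3, 18.4 and 17.5 in floxed progesterone libraries. Knockout libraries stood at 18.7, 21.1, 24.6 and 26.2 RPKM after vehicle and 32.9, 31.8, 33.6 and 31.5 after progesterone. It thus fell in floxed and rose in knockout uteri (difference 1.13 ± 0.13, adjusted p = 0.000346). Nipsnap1, which encodes a mitochondrial protein, fell from 26.3 ± 1.83 to 20.7 ± 2.35 RPKM in floxed uteri and rose from 23.1 ± 2.18 to 30.1 ± 2.04 RPKM in knockouts (SD, n = 4 each; difference 0.72 ± 0.13, adjusted p = 0.00696). Fcho1, a further endocytic adaptor, fell from 3.23 ± 0.0895 to 1.71 ± 0.211 RPKM in floxed uteri and rose from 3.11 ± 0.629 to 5.34 ± 0.767 RPKM in knockouts (SD, n = 4 each; difference 1.46 ± 0.18, adjusted p = 0.000683). Fcho1 gave 0.68 (adjusted p = 0.455) with the other batch's vehicle libraries.

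Of 20 tested estrogen-responsive epithelial genes 2 were called, both negative, against 1.12% of all genes, with a median difference of −0.34. They were Igf1, a stromal growth factor, and Greb1, an estrogen receptor cofactor. Igf1 rose from 31.2 ± 2.38 to 52.0 ± 4.27 RPKM in floxed uteri and was 49.4 ± 15.7 and 35.9 ± 10.2 RPKM in knockouts (SD, n = 4 each; difference −1.18 ± 0.28, adjusted p = 0.0328). Greb1 rose from 1.72 ± 0.731 to 11.1 ± 4.8 RPKM in floxed uteri and was 3.18 ± 1.29 and 4.73 ± 1.81 RPKM in knockouts (SD, n = 4 each; difference −1.85 ± 0.47, adjusted p = 0.0445). Both calls were fragile. Igf1 was called in 7 and Greb1 in 4 of the 16 fits that left out 1 library. The call was lost in both without knockout progesterone 5, floxed progesterone 2 or 7, or floxed vehicle 1b, 2 or 4. It was lost in Igf1 also without knockout vehicle 11b, floxed progesterone 9 or floxed vehicle 3. In Greb1 it was lost also without knockout progesterone 6 or 8, knockout vehicle 9, 10 or 12, or floxed progesterone 1. Differences ran from −1.30 to −0.98 for Igf1 and from −2.06 to −1.61 for Greb1. They were −0.72 (adjusted p = 0.223) and −0.82 (adjusted p = 0.764) with the other batch's vehicle libraries, and Greb1 was not called on the RPKM scale (adjusted p = 0.0945).

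Of 10 tested gland genes, 3 were called, against 2.99% of all genes, with Calca and Ttr negative and Lgr5 positive, and the median difference was −0.06. Ttr, which encodes the thyroxine carrier transthyretin, rose from 1.16 ± 0.296 to 3.5 ± 0.717 RPKM in floxed uteri and was at most 0.203 RPKM in any knockout library (SD, n = 4 each; difference −1.17 ± 0.20, adjusted p = 0.00613, or −1.24 with adjusted p = 0.221 with the other batch's vehicle libraries). Ttr met the filter of 1 RPKM in at least 4 libraries only with the floxed progesterone libraries, so its p-values carry that choice. No gene was called by limma among 30 cell cycle genes, 26 interferon-response genes, 18 beta protocadherins and 11 chromatin loop factors. With 2.99% of all genes called, 0 in lists of this size is near the background. At an unadjusted p under 0.05 there were 0, 1, 0 and 2 genes in the same order. In these lists limma called none under quantile normalization, with the other batch's vehicle libraries or without the 5 libraries either.

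The classes differed in how many of their genes were called under other settings. Of the 61 blunted genes, 21 were called in every fit that left out 1 library, 47 on the RPKM scale, 15 with the other batch's vehicle libraries and 10 without the 5 libraries. For the 266 lost genes these counts were 113, 220, 54 and 35, for the 24 reversed 19, 24, 2 and 2, and for the 59 gained 24, 48, 7 and 6. A gene that a fit dropped through its filter on low values counts as not called. The first 3 conditions were met by 46 of the 421 genes: 33 lost, 10 blunted, 2 reversed and 1 gained, Slc39a4. Fst, Cyp26a1, Aldh1a2, Hsd11b2, Areg, Calca, Ripor2, Pi15 and Vwa2 were among them. Of these named genes Slc39a4, Aldh1a2, Pi15 and Nipsnap1 were not called without the 5 libraries, and Calca did not pass the filter on low values there. Of the other called genes named here, Aen, Antxr1, Ckmt1, Fcho1, Lrp2, Npas2, Pfkfb3 and Scnn1a were called without the 5 libraries. Of 416 called genes that could be tested with the other batch's vehicle libraries 79 were called there, in a fit that shares the 8 progesterone libraries. For the genes compared between batches, the deposited values also have the same average of floxed and knockout vehicle means in both batches. The other batch's vehicle levels are thus tied to those of this batch, and that fit is no independent repeat.

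**Figure D5:**
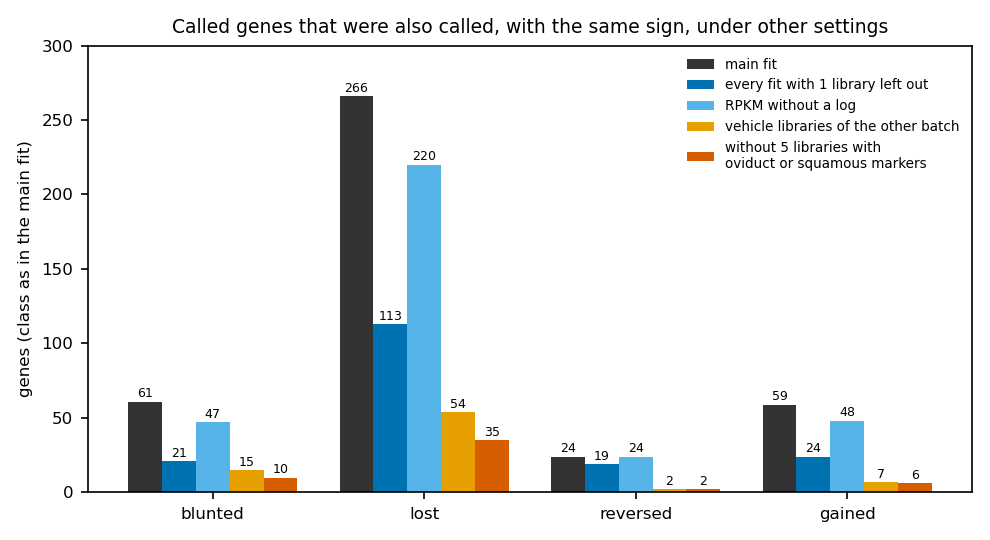
Number of genes in each class (dark bars) and how many of them were called with the same sign under 4 other settings. With the other batch's vehicle libraries 54 of 266 lost, 15 of 61 blunted, 7 of 59 gained and 2 of 24 reversed genes were called.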

How the data were processed

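The deposited table holds RPKM values that the authors corrected for batch, 1 value per gene and library, for 22943 genes in 24 libraries. The values are called a score here, because the authors adjusted the RPKM for batch before the table was deposited, as the name of the deposited table says, and some lie below 0. Their steps included cutadapt 2.7, TopHat, Partek and mm10, per the submitters' processing notes, with the counting tool, annotation, strand setting and batch-correction tool not given in the sources used here. Within a batch the deposited correction keeps RPKM differences but alters ratios near 0. Depth was taken from the step that 1 read makes in low values, over at least 191 genes per library.

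The 16 libraries of the batch with all groups were fitted together in limma 3.58.1 (R 4.3.3, trend and robust, two-sided) on log2(RPKM + 0.5), with values below 0 set to 0 (0.174% of tested values). Genes needed 1 RPKM in at least 4 libraries, and p-values were adjusted by Benjamini-Hochberg over 14059 genes. The planned design assumed RPKM, and the log-scale test was kept. Scripts were tested on simulated data. Named genes were the 5 largest differences per class and direction at 5 RPKM or more, up to 4 called members of each list, and Ctcf, Pgr and Esr1. Fkbp5, Il13ra2, Hoxa10, Gata2, Rdh10, Ihh, Notum, Nfil3, Tef, Pacsin3 and Nipsnap1 were chosen after their values were seen. The members and lists were chosen with earlier results of these data known. Alternatives were other pseudocounts, filters, normalizations and scales, other vehicle libraries, library weights, a replicate block and left-out libraries. Coordinates are from GENCODE M21 on GRCm38, matched for 13740 tested genes. Some genes of the lists are not reported here.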

Additional observations from a re-analysis of the deposited data

Results flagged for a closer look

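The difference in response was tested by an interaction term, which called 421 genes. Within groups of 4, a library stood apart from the other 3 in 20 of 272 groups of named genes (7.35%, by Dixon's ratio at its 95% critical value), and chance flags about 1 in 20. Knockout progesterone library 8 was high for Cyp26a1 (5.1 RPKM, others 1.25 to 1.76), Hbegf (4.97) and Ttr (0.203), and low for Emilin3 (11.3) and Pcdhb13 (0.234). Knockout vehicle library 9 was high for Hsd11b2 (16 RPKM, others 9.6 to 10.4) and Igf1 (72.8), and low for Hbegf (3.12). Knockout vehicle library 12 was high for Areg (0.524 RPKM, others 0.186 to 0.229) and Ttr (0.0854), and library 10 for C1qtnf7 (8.99) and Npas2 (5.79). Knockout progesterone library 6 was low for Tac2 (0.092 RPKM, others 0.404 to 0.465) and library 4 for Hhip (−0.316). Floxed progesterone library 1 was high for Calca (3.29 RPKM), Gli1 (65.2) and Fstl3 (25.6). Floxed progesterone library 9 was high for Slc5a5 (2.66 RPKM) and low for Pcdhb13 (0.493), and floxed vehicle library 4 was high for Nr4a3 (0.873).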

How the results depend on the processing

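With at least 5 RPKM in 4 libraries 266 genes were called, with 154 called genes with a more positive response in knockouts, with 37 blunted, 175 lost and 31 gained, over fewer genes tested. All 24 libraries with a batch term gave 10 reversed and 34 gained. The other batch's vehicle libraries gave 149 (71 positive, 78 negative), with 20 blunted, 89 lost, 13 reversed and 24 gained. Library weights gave 4975 (2709 positive, and 2266 called genes with a more negative response in knockouts), with 687 blunted, 1863 lost, 728 reversed and 1447 gained. The weights were 11 for floxed vehicle 1b, 8.55 for knockout progesterone 5 and 6.58 for knockout vehicle 11b, and as low as 0.109 for knockout progesterone 8. Single libraries thus carried much of that fit, and its counts are not comparable with the others. Without the 5 libraries, an 11-library fit, 63 were called (31 positive, 32 negative), with 10 blunted, 44 lost, 2 reversed and 6 gained. A ratio limit of 0.5 for lost responses left 37 blunted. Leaving out 1 library at a time gave 219 to 585 called, 123 to 403 positive, 95 to 203 negative, 26 to 75 blunted, 146 to 374 lost, 8 to 31 reversed, 27 to 91 gained, 0 to 9 enhanced and 1 to 21 with neither response called. Signs changed for Lrp2 in RPKM (−5.23) and, with the other vehicle libraries, for Arntl (0.94), Pnliprp2 (−0.057), Adamts4 (0.092), Sp5 (−0.022), Lgr5 (−0.28) and Npas2 (0.20). The cause was not tested. Esr1, not called in any of these fits, was −0.0225 in RPKM, and Nfil3 (0.15) and Tef (−0.34) changed sign with the other vehicle libraries. Among genes named by rule, 669 other values kept sign and side of the threshold, 136 no longer passed and 8 newly passed, and 993, 109 and 2 did so when 1 library was left out. With the replicate number as a block 405 genes were called, 400 of them among the 421. Libraries that share a number had no common sign: the correlations of the 4 pairs were −0.35, −0.257, 0.171 and 0.552. The pairs at −0.35 and 0.171 join different genotypes, so these few values do not settle whether shared numbers pair libraries. Pseudocounts of 0.1 and 1 gave 402 and 455, no filter 474, and RPKM without a log 480.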
